A study of Mus musculus with 21 samples.

Results

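Gsx2, Olig1, Olig2, Sp8, Sp9 and Isl1 are transcription factors of the progenitors of the ventral telencephalon and of the neurons and glia born there. They were taken by name, through the probe sets annotated to each. Of the 6 genes, 5 had a probe set and Sp9, for which the annotation used held none, was not analysed here. The 5 genes had 6 probe sets of 45037 in all, since Isl1 had 2, and 5 of the 6, 1 per gene, lay above the filter on low values and were tested among 29474. The question was whether these ventral genes differ in cortex that carries a mutant Pax6.

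RNA came from the rostral cerebral cortex of mice at embryonic day 14 and was measured on 21 arrays, 1 per sample. Pax6 Sey mutants (n = 4) and their wild-type littermates (n = 3) were on a C57BL/6J x DBA/2J (B6D2F1) background. Pax6 Leca4 mutants (n = 3) and their wild-type littermates (n = 4), and Pax6 Leca2 mutants (n = 4) and their wild-type littermates (n = 3), were on a 129 S6 background. No embryo was treated, and the labels do not say whether mutants carry 1 or both mutant alleles. From general knowledge of the alleles, Sey truncates the Pax6 protein, while Leca4 and Leca2 each exchange an amino acid in a different subdomain of its DNA-binding paired domain, the PAI subdomain in Leca4 and the RED subdomain in Leca2. The strain of the Sey line differs from that of the other lines, so that strain and allele cannot be told apart between them.

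Pax6 is made in dorsal telencephalic progenitors, where it keeps ventral genes low. Gsx2 marks progenitors of the lateral ganglionic eminence (LGE), the ventral domain next to the cortex, and it and Pax6 repress each other at the border. Progenitors of the LGE give rise to striatal projection neurons, many of which use Isl1, and to interneurons of the olfactory bulb, which use Sp8 and Sp9. Olig1 and Olig2 are basic helix-loop-helix factors of ventral progenitors and of the oligodendrocyte lineage.

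Values are the deposited log2 expression values, so that a difference of 1 is 2-fold. They compare a probe set between arrays and not genes with one another. The lines appear to have been normalized separately, and levels of different lines are set side by side below as a description. A level of 5.37 to 5.6, the 40th percentile of each array, served as the filter level, at or below which a probe set is taken as not above background. Changes are mutant minus littermate control of the same line from limma, with the standard error after ±, and the threshold for a call was an adjusted p under 0.05 over all probe sets tested. Tissue was measured in bulk, so that more cells of a type and more RNA per cell cannot be told apart. Arrays of a group correlated at 0.988 or above over all kept probe sets. The mutated gene itself, by its brightest probe set, was higher in the Sey mutants by 0.56 ± 0.09 (adjusted p = 0.000335), in the Leca4 mutants by 0.49 ± 0.09 (adjusted p = 0.00483) and in the Leca2 mutants by 0.93 ± 0.09 (adjusted p = 2.54e-05), which tells nothing of its protein. In Leca4 mutants its other 3 probe sets were not called. Of these 3, 1 was not called in Sey mutants (0.19, adjusted p = 0.0874) and 1 not in Leca2 mutants (0.34, adjusted p = 0.12). From Xist and Y-linked transcripts, 3 of the 4 Sey mutants were female and all 3 Sey controls male, 1 of the 3 Leca4 mutants and 1 of the 4 Leca4 controls were female, and 2 of the 4 Leca2 mutants and all 3 Leca2 controls were female. Sex is given beside the results below where it moved a call. Sey mutant 2, male like the Sey controls, stood above their mean by 2.80 in Gsx2, 2.32 in Sp8 and 2.58 in Olig2.

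In Sey mutant cortex 4 of the 5 genes rose, Gsx2, Sp8 and Olig2 by 6.62-fold to 8.86-fold and Olig1 by 1.47-fold. Of all 13850 genes with a kept probe set, 18.0% were called in the Sey comparison and 9.65% were called higher. The median change of the 5 genes was 2.73, against 0.00 over all genes. Among all genes ordered from the highest change, Gsx2 stood at place 8, Sp8 at 12, Olig2 at 13 and Olig1 at 490. No member was called in Leca4 or Leca2 mutants. The members were chosen with earlier results of these data known, so these shares, medians and places describe them and are no independent evidence.

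**Figure D1:**
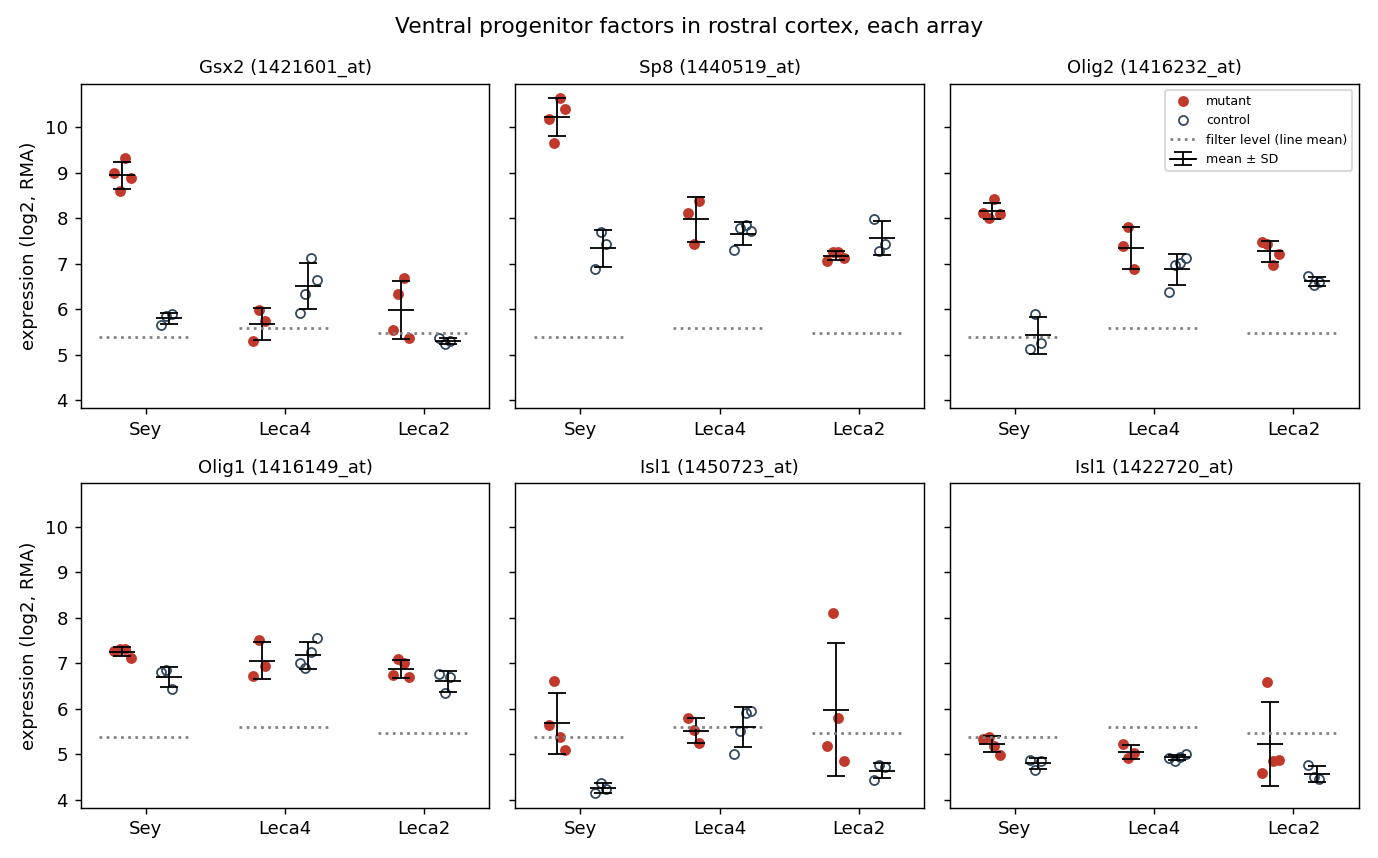
Log2 expression of the 6 probe sets in each of the 21 arrays, mutants left of the controls of their line, with the group mean ± SD as a bar and the filter level as a dotted line. The 4 Sey mutants lie above every other array in Gsx2, Sp8 and Olig2, and 1 Leca2 mutant at 8.11 stands alone in Isl1.

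Gsx2, the homeodomain factor that specifies LGE progenitors, lies on chromosome 5. The 250 bases before its transcription start (chr5:75075351-75075600, plus strand) are shown because it had the largest change of the 5 genes, and those of Olig2 and Sp8 below because the 3 moved together in Sey mutants. These sequences are from RefSeq with build GRCm38.p6, and the table used matched 5 of the 6 genes, all but Olig1. They were searched on both strands for TAATTA, a homeodomain core that 4.84% of 32851 mouse promoters of this length hold, and for TTCACGC, a core of paired domain sites held by 1.03%, which does not overlap the first. Gsx2 held neither motif in this window.
Gsx2: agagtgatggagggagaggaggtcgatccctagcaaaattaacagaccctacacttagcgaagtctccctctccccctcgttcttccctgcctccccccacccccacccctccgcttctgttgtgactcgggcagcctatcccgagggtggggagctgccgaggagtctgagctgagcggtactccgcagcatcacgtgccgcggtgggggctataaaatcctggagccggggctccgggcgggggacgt

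Gsx2 read 9.0, 8.59, 9.31 and 8.87 in Sey mutants, against 5.65, 5.85 and 5.89 in Sey controls. All 4 Sey mutants lay above all 3 controls, as 16.5% of all genes did, and the controls lay just above the filter level. The mean was 8.94 ± 0.30 in Sey mutants and 5.80 ± 0.13 in Sey controls (SD, n = 4 and 3), a rise of 3.15 ± 0.29 (95% interval 2.54 to 3.75), or 8.86-fold, with an adjusted p of 4.13e-07.

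In the Leca4 line Gsx2 leaned the other way. It read 5.29, 5.99 and 5.74 in Leca4 mutants, against 5.92, 6.32, 7.12 and 6.64 in Leca4 controls. Of the 3 mutants, 2 lay below every control and 1 lay within the range of the controls. The change of -0.83 ± 0.29 (95% interval -1.43 to -0.22) had an unadjusted p of 0.01 and did not pass adjustment (adjusted p = 0.133). By size it stood at place 13780 of 13850 from the highest.

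In the Leca2 line Gsx2 differed among the mutants. It read 5.53, 6.34, 6.68 and 5.36 in Leca2 mutants, against 5.37, 5.23 and 5.29 in Leca2 controls. Mutants 2 and 3 were clearly higher, mutant 4 lay within the range of the controls, and all 3 controls were at or below the filter level. The change of 0.68 ± 0.29 (95% interval 0.08 to 1.28) was not called (adjusted p = 0.609). The mean of the Leca2 mutants lay 1.41-fold above the filter level. By group mean the order was Sey mutants, Leca4 controls, Leca2 mutants, Sey controls, Leca4 mutants and Leca2 controls. The Sey mutants stood apart from all other arrays, and each of the other groups overlapped its neighbour in that order.

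Sp8, a zinc finger factor of dorsal LGE progenitors and of olfactory bulb interneurons, lies on chromosome 12 and has 3 annotated starts in the RefSeq table. The windows before the later starts each held 1 motif, in capitals, TTCACGC, beginning 182 bases before the middle start (chr12:118846983-118847232, plus strand) and TAATTA, beginning 188 bases before the last start (chr12:118847309-118847558, plus strand). The window before the other start held neither.
Sp8 middle start: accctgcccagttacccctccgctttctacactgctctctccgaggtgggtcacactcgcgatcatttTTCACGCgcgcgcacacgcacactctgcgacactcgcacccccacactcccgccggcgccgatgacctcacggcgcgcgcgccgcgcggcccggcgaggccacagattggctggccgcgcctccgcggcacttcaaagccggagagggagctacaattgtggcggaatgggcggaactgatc
Sp8 last start: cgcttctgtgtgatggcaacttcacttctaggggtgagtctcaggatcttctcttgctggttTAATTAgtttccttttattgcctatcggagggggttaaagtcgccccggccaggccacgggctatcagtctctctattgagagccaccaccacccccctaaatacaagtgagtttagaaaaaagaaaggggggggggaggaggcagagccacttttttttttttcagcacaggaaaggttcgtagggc

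Sp8 read 10.18, 9.66, 10.63 and 10.39 in Sey mutants, against 6.89, 7.70 and 7.42 in Sey controls. The groups were about 2 log2 units apart at their nearest. The mean was 10.22 ± 0.41 in Sey mutants and 7.34 ± 0.41 in Sey controls (SD, n = 4 and 3), a rise of 2.88 ± 0.24 (95% interval 2.37 to 3.39), or 7.36-fold, with an adjusted p of 1.77e-07.

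Sp8 moved little in the other lines. It read 8.11, 7.43 and 8.38 in Leca4 mutants, against 7.29, 7.79, 7.85 and 7.71 in Leca4 controls, with 2 mutants above every control and 1 among them. The change of 0.31 ± 0.24 (95% interval -0.20 to 0.83) was not called (adjusted p = 0.588). It read 7.06, 7.25, 7.26 and 7.12 in Leca2 mutants, against 7.99, 7.28 and 7.44 in Leca2 controls. All 4 Leca2 mutants lay below all 3 controls, as 3.34% of all genes did, by a narrow gap and with a change of -0.39 ± 0.24 (95% interval -0.91 to 0.12, adjusted p = 0.829). By mean the Sey mutants led, followed by Leca4 mutants, Leca4 controls, Leca2 controls, Sey controls and Leca2 mutants. Each of these last 5 groups overlapped its neighbour in that order.

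Olig2, which ventral progenitors and oligodendrocyte precursors use, lies on chromosome 16 with 1 annotated gene between it and Olig1. The window before its start (chr16:91225300-91225549, plus strand) held neither motif.
Olig2: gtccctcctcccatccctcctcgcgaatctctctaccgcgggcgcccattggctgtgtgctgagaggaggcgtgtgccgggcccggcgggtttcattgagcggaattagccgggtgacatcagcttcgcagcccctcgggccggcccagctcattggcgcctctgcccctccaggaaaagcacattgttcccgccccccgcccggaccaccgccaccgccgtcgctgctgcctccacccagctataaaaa

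Olig2 read 8.11, 8.01, 8.41 and 8.08 in Sey mutants, against 5.13, 5.90 and 5.25 in Sey controls. The Sey mutants varied little, and 2 of the 3 Sey controls were at or below the filter level. The mean was 8.15 ± 0.175 in Sey mutants and 5.43 ± 0.41 in Sey controls (SD, n = 4 and 3), a rise of 2.73 ± 0.21 (95% interval 2.28 to 3.17), or 6.62-fold, with an adjusted p of 5.69e-08.

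Olig2 was the only one of the 5 genes whose change was above 0 in all 3 mutants. It read 7.38, 7.80 and 6.87 in Leca4 mutants, against 6.38, 6.97, 7.01 and 7.13 in Leca4 controls. Of these mutants 2 lay above every control, with a change of 0.47 ± 0.21 (95% interval 0.03 to 0.92) that was not called (adjusted p = 0.265). It read 7.48, 7.42, 6.96 and 7.22 in Leca2 mutants, against 6.72, 6.53 and 6.59 in Leca2 controls. All 4 Leca2 mutants lay above all 3 controls, as 3.26% of all genes did. The change of 0.66 ± 0.21 (95% interval 0.21 to 1.10) had an unadjusted p of 0.00624 and did not pass adjustment (adjusted p = 0.344).

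The control levels of Olig2 were not alike. Those of the Sey line, 5.13 to 5.90, lay below those of the Leca4 line, 6.38 to 7.13, and of the Leca2 line, 6.53 to 6.72, and the Sey line differs from both in strain and appears to have been normalized apart. The order by mean was Sey mutants, Leca4 mutants, Leca2 mutants, Leca4 controls, Leca2 controls and Sey controls, and only the highest and the lowest group overlapped no neighbour.

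Olig1, the close relative of Olig2, changed much less. It read 7.28, 7.32, 7.32 and 7.11 in Sey mutants, against 6.80, 6.86 and 6.44 in Sey controls. All 4 Sey mutants lay above all 3 controls, as 16.5% of all genes did. The mean was 7.26 ± 0.10 in Sey mutants and 6.70 ± 0.23 in Sey controls (SD, n = 4 and 3). The rise of 0.55 ± 0.18 (95% interval 0.18 to 0.93), or 1.47-fold, was called at an adjusted p of 0.0409, and the call was lost on leaving out any Sey control or any of Sey mutants 1, 2 and 3 (adjusted p 0.0511 to 0.202).

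The other lines showed no called change of Olig1. It read 6.73, 7.51 and 6.94 in Leca4 mutants, against 7.01, 6.90, 7.24 and 7.55 in Leca4 controls, with 1 mutant below every control, 2 among them and a change of -0.11 ± 0.18 (95% interval -0.49 to 0.26, adjusted p = 0.818). It read 6.74, 7.10, 7.0 and 6.69 in Leca2 mutants, against 6.76, 6.34 and 6.71 in Leca2 controls, with 2 mutants above every control and a change of 0.28 ± 0.18 (95% interval -0.09 to 0.65, adjusted p = 0.839). The Sey mutants had the highest mean of Olig1, followed by the Leca4 controls, Leca4 mutants, Leca2 mutants, Sey controls and Leca2 controls, and each group overlapped the next.

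Isl1 encodes a LIM homeodomain factor of striatal projection neurons and of cholinergic neurons, and motor neurons and sensory ganglia use it too. Its values lay near the filter level on many arrays. Its kept probe set read 5.64, 6.62, 5.37 and 5.09 in Sey mutants, against 4.16, 4.37 and 4.23 in Sey controls. All 4 mutants lay above all 3 controls, as 16.5% of all genes did, but every control was at or below the filter level. The mean of the Sey mutants lay 1.22-fold above that level. The fitted change of 1.42 ± 0.53 (95% interval 0.32 to 2.53) had an unadjusted p of 0.0145 and was not called (adjusted p = 0.0826). The highest Sey mutant was replicate 2, the only male among them, and with a term for sex the change was 2.04, with an adjusted p of 0.0204.

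Isl1 did not separate the groups of the Leca4 line. It read 5.80, 5.53 and 5.24 in Leca4 mutants, against 5.0, 5.51, 5.90 and 5.96 in Leca4 controls, with a change of -0.07 ± 0.53 (95% interval -1.18 to 1.04, adjusted p = 0.969). In the Leca2 line a single array carried most of the difference. It read 5.18, 8.11, 5.79 and 4.85 in Leca2 mutants, against 4.44, 4.76 and 4.72 in Leca2 controls, all 3 at or below the filter level. The change of 1.34 ± 0.53 (95% interval 0.24 to 2.45) was not called (adjusted p = 0.531), and the mean of the mutants lay 1.42-fold above the filter level. Without Leca2 mutant 2 the change was 0.64 ± 0.32 (adjusted p = 0.831), and the mean of the other mutants lay below the filter level, which leaves no fold to give. By mean the order of Isl1 was Leca2 mutants, Sey mutants, Leca4 controls, Leca4 mutants, Leca2 controls and Sey controls. The ranges of the first 4 overlapped, and the Leca2 and Sey controls lay below those of both Leca4 groups.

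The second probe set of Isl1, which the filter removed, read 5.34, 5.38, 5.19 and 4.98 in Sey mutants, against 4.88, 4.66 and 4.86 in Sey controls. It lay above the filter level in 1 Sey mutant, in no Leca4 mutant or control, and in Leca2 mutant 2 alone, at 6.59, among the Leca2 mutants and controls. Both probe sets thus showed mutant 2 as the highest of the Leca2 line.

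Of the 5 genes, 0 were called in Leca4 mutants by limma, where 4.54% of all genes were, and 2 had an unadjusted p under 0.05 (Gsx2 and Olig2), where 17.6% of all genes did. In Leca2 mutants 0 were called, where 0.426% of all genes were, and 3 had an unadjusted p under 0.05 (Gsx2, Olig2 and Isl1), where 6.43% of all genes did. The median change of the 5 genes was -0.07 in Leca4 mutants, against 0.01 over all genes, and 0.66 in Leca2 mutants, against 0.01 over all genes. The Leca2 median was 0.50 with Gsx2 and Isl1, whose Leca2 controls were all at or below the filter level, set at their bounds. By size, Olig2 stood at place 27 of 13850 from the highest change in Leca2 mutants and Sp8 at 13747.

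**Figure D2:**
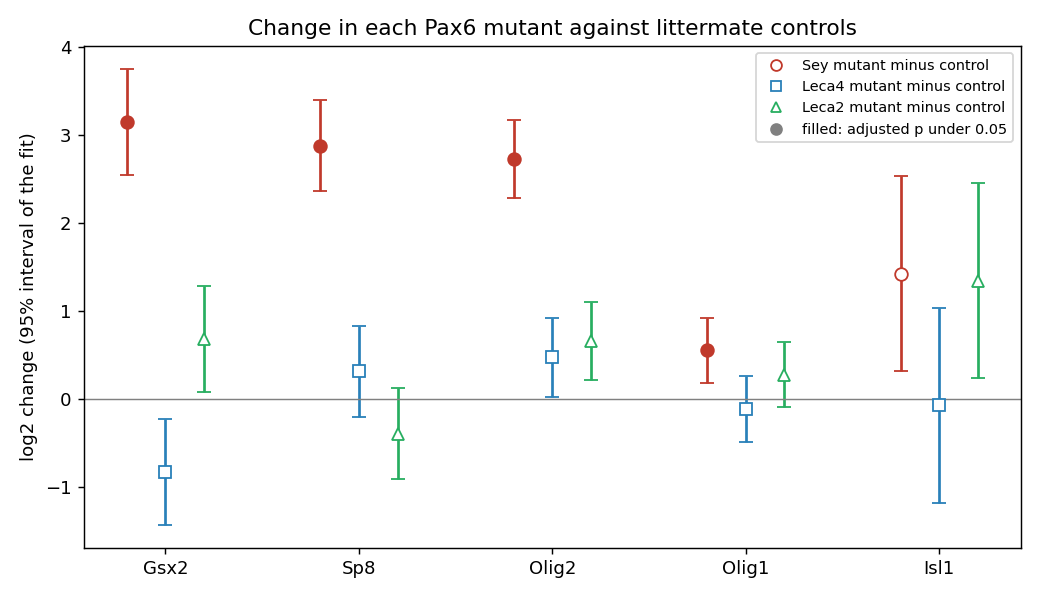
Log2 change, mutant minus littermate control, of the 5 tested genes in the Sey, Leca4 and Leca2 lines with the 95% interval of the fit, filled where called. Gsx2, Sp8 and Olig2 lie at 2.73 to 3.15 in Sey, and Gsx2 lies at -0.83 in Leca4 and 0.68 in Leca2.

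The changes of the lines were then tested against each other. Sey and Leca4 differed in 3 of the 5 genes, where 11.0% of all genes were called and 5.78% higher. The difference was 3.97 ± 0.41 for Gsx2 (adjusted p = 4.38e-06), 2.57 ± 0.35 for Sp8 (adjusted p = 9.86e-05) and 2.25 ± 0.30 for Olig2 (adjusted p = 9.06e-05). The same 3 genes differed between Sey and Leca2, where 5.41% of all genes were called and 2.74% higher. Here Sp8 was the largest at 3.27 ± 0.35 (adjusted p = 1.26e-05), then Gsx2 at 2.47 ± 0.41 (adjusted p = 0.0012) and Olig2 at 2.07 ± 0.30 (adjusted p = 0.000393). These comparisons share the Sey arrays.

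Olig1 and Isl1 passed neither of these tests. Sey minus Leca4 was 0.67 ± 0.25 for Olig1 (adjusted p = 0.106) and 1.49 ± 0.75 for Isl1 (adjusted p = 0.237), and Sey minus Leca2 was 0.28 ± 0.25 for Olig1 (adjusted p = 0.685) and 0.08 ± 0.75 for Isl1 (adjusted p = 0.982). Between Leca4 and Leca2, 0 of the 5 genes were called by limma, where 1.72% of all genes were. Gsx2 alone had an unadjusted p under 0.05 (0.00159), which 13.9% of all genes had. Its difference was -1.51 ± 0.41 (95% interval -2.36 to -0.65, adjusted p = 0.0764), and the adjusted p was 0.0477 without Leca2 mutant 1, 0.035 without Leca2 mutant 4 and 0.0438 without Leca4 control 1, and 0.0698 to 0.164 without any other single array of these lines.

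Single arrays were also compared as deviations from the control mean of their line. Leca2 mutants 2 and 3 were high in Gsx2, by 1.04 and 1.39, and mutants 1 and 4 were not, at 0.24 and 0.06. Dlx1 and Dlx2, homeodomain factors downstream in LGE progenitors, followed the same arrays, Dlx1 with -0.33, 1.23, 1.45 and -0.68 and Dlx2 with 0.18, 1.12, 1.49 and -0.44 in Leca2 mutants 1 to 4. The 17 other ventral regulators described below include Dlx1 and Dlx2 themselves. Their mean deviation was -0.20, 0.30, 0.46 and -0.33 on these arrays. Olig2 did not follow them, at 0.87, 0.81, 0.35 and 0.61, and Sp8 lay between -0.50 and -0.31 in all 4. In the Leca4 line the mutants deviated by -1.21, -0.51 and -0.76 in Gsx2, by -0.96, -0.53 and -1.14 in Dlx1 and by -0.49, -0.13 and -0.74 in Dlx2. Leca4 control 3 was high in Gsx2 (0.62), Dlx1 (0.77) and Dlx2 (0.73). Dlx1 was singled out after its values were seen, and Dlx2 is the gene nearest to Gsx2 over these same arrays. Their likeness to Gsx2 is thus no separate evidence. The part that the share of ventral tissue in a dissection has in these array differences was not tested.

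**Figure D3:**
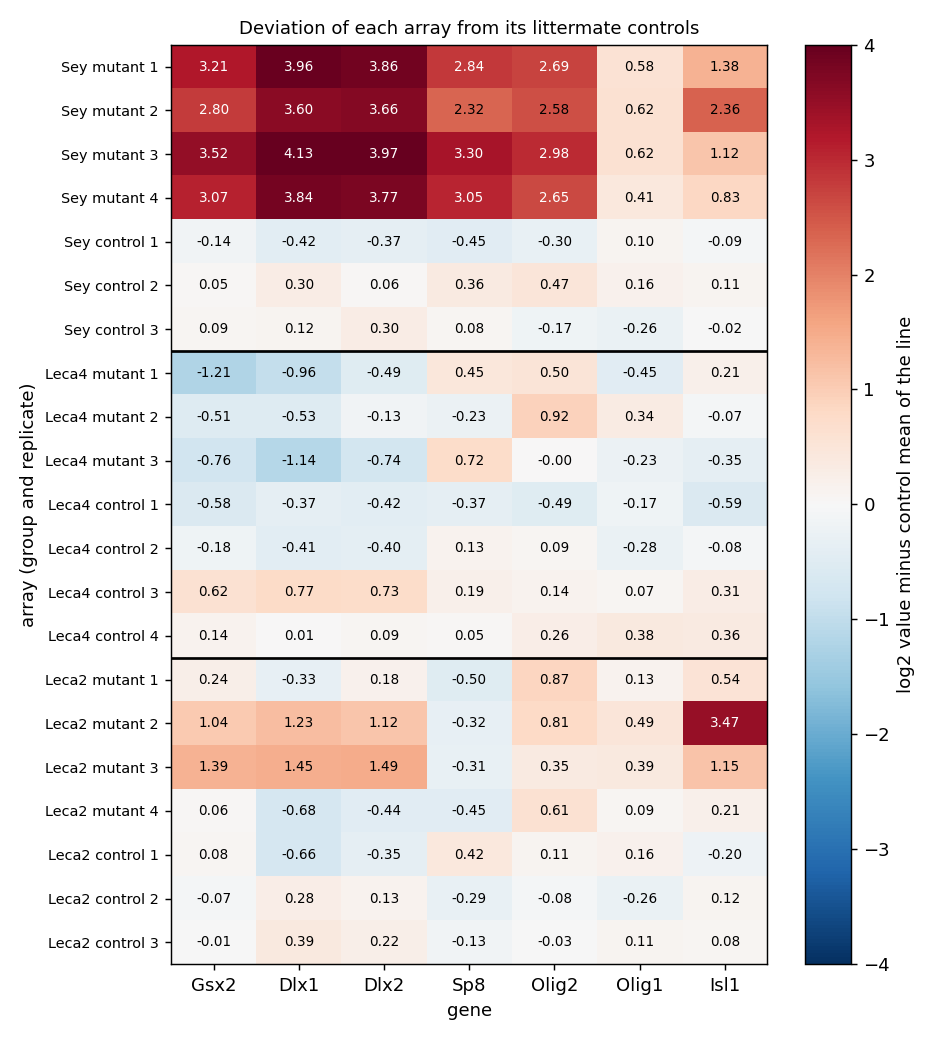
Deviation of each of the 21 arrays from the control mean of its line, in log2 units, for Gsx2, Dlx1, Dlx2, Sp8, Olig2, Olig1 and Isl1, with mutants above the controls of each line. Leca2 mutants 2 and 3 are high in Gsx2, Dlx1 and Dlx2, and Leca2 mutant 2 reaches 3.47 in Isl1.

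Genes with the most similar values were sought for each member, as the root mean square difference of these deviations over the 21 arrays. They were chosen on the same arrays, so their changes and adjusted p values describe the likeness and are no separate evidence. Gsx2 was nearest to Dlx2 (0.392), to Slc18a2, the vesicular monoamine transporter (0.396), and to Dlx5 (0.443). Dlx2 rose by 3.81 ± 0.35 (adjusted p = 4.89e-07) and Dlx5 by 3.76 ± 0.28 (adjusted p = 2.86e-08) in Sey mutants, and Slc18a2 was at least 5.78-fold higher there (adjusted p = 3.06e-06). Neither Dlx2, Slc18a2 nor Dlx5 was called in the other lines, where their changes were -0.79 to -0.30 in Leca4 mutants and 0.26 to 0.59 in Leca2 mutants.

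Sp8 was nearest to Dlx6 (0.396), to Wls, which carries Wnt proteins to the cell surface (0.430), and to the homeodomain factor Gbx2 (0.456). In Sey mutants Dlx6 was at least 6.49-fold higher (adjusted p = 3.77e-09), Wls rose by 2.99 ± 0.15 (adjusted p = 2.05e-10) and Gbx2 was at least 2.34-fold higher (adjusted p = 5.12e-12). Olig2 was nearest to Depdc7 and Stk33 (0.423 each) and to Ptf1a, a helix-loop-helix factor of inhibitory neurons in cerebellum and spinal cord (0.454). Ptf1a rose by 1.97 ± 0.145 in Sey mutants (adjusted p = 2.98e-08) and, like Olig2, had changes above 0 in Leca4 mutants (0.45) and Leca2 mutants (0.49) that were not called.

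Olig1, which varied little over the arrays, was nearest to Peg3 (0.185), Eda2r (0.188) and Klf15 (0.192). Isl1 had no gene as close, and its nearest were the growth factor Fgf15 (0.596), the zinc finger factor Zic4 (0.606) and Tmem163 (0.692). Zic4 rose by 1.22 ± 0.28 in Sey mutants (adjusted p = 0.00523). Tmem163 rose by 1.10 ± 0.095 in Sey mutants (adjusted p = 2.29e-07) and by 0.965 ± 0.095 in Leca2 mutants (adjusted p = 2.54e-05), and fell by 0.46 in Leca4 mutants (adjusted p = 0.0081).

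Related genes were taken from lists of known markers and regulators, also chosen with earlier results of these data known. Beside the counts below, 18.0% of all genes were called in Sey mutants (9.65% higher), 4.54% in Leca4 mutants and 0.426% in Leca2 mutants. At an unadjusted p of limma under 0.05 the shares were 17.6% in Leca4 mutants and 6.43% in Leca2 mutants. Of 17 tested regulators and markers of ventral progenitors and interneurons other than the members, 11 rose and 1 fell in Sey mutants. The list's median change was 1.80, against 0.00 over all genes, and 1.75 with Dlx6 and Prox1, whose Sey controls were at or below the filter level, set at their bounds. Beside the Dlx genes, the rise of Dlx6os1, the noncoding RNA at the Dlx5 and Dlx6 locus, was the largest at 4.55 ± 0.415 (adjusted p = 4.1e-07). The genes of the inhibitory transmitter pathway rose too, Gad1 by 2.02 ± 0.33 (adjusted p = 0.000285) and Gad2 by 1.75 ± 0.27 (adjusted p = 0.000164). In the other lines 0 of the 17 rose by limma at their brightest probe set, with 3 at an unadjusted p under 0.05 in Leca4 mutants and 1 in Leca2 mutants. Other kept probe sets of Sox6 and Maf were called higher in Leca4 mutants. These were all 3 others of Sox6 (0.39 to 0.42) and 2 of the 4 others of Maf, which ranged from 0.06 to 0.76. Sall3, a zinc finger factor, fell by 0.81 in Leca4 mutants (adjusted p = 6.19e-05).

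The same list holds genes of the more medial ventral domain. Nkx2-1, which defines progenitors of the medial ganglionic eminence, averaged 5.77 ± 0.05 in Sey mutants and 5.86 ± 0.14 in Sey controls (SD, n = 4 and 3), a change of -0.09 (adjusted p = 0.593). Lhx6, a marker of the interneurons born there, was at -0.56 (adjusted p = 0.0795). Maf, also used by interneurons born there, was the 1 gene of the list that fell, by 0.72 (adjusted p = 0.0148), while its other 4 probe sets were at -0.48 to -0.01 and not called. Gsx1, the relative of Gsx2, was at -0.03 (adjusted p = 0.91). Gsx1 averaged 5.65 in Sey mutants and 5.68 in Sey controls, and like Nkx2-1 lay near the filter level, where a fall could hardly show. Nkx2-1, Lhx6, Maf, Gsx1, Gad1 and Gad2 were named for their known roles after their values were seen.

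**Figure D4:**
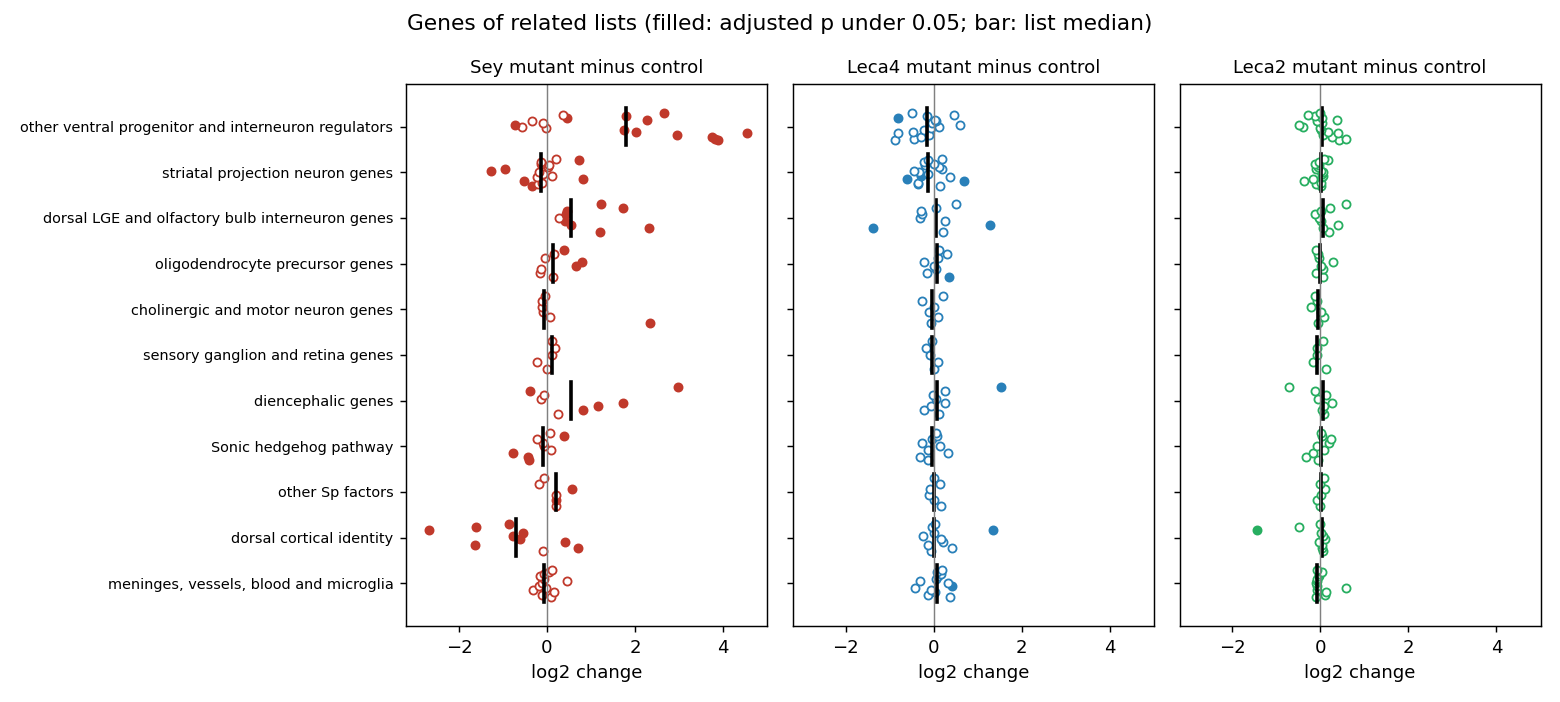
Log2 change, mutant minus littermate control, of each tested gene of the related lists in the 3 lines, with the list median as a bar. In Sey mutants the other ventral regulators have a median of 1.80 and the dorsal cortical genes one of -0.69.

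Genes of neurons born in the LGE were counted in separate lists. Of 9 tested genes of dorsal LGE and olfactory bulb interneurons, 8 rose and 0 fell in Sey mutants, with a median of 0.55. Pbx3 rose by 2.32 ± 0.35 (adjusted p = 0.000111), Tshz1 by 1.73 ± 0.11 (adjusted p = 4.62e-09), Zic1 by 1.22 ± 0.19 (adjusted p = 0.000139) and Calb2, the calcium-binding protein calretinin, by 1.21 ± 0.19 (adjusted p = 0.000212). Their means in Sey controls were 8.50 (Calb2) to 11.30 (Zic1), above the filter level, and the cells in which they rose were not tested. In Leca4 mutants Pbx3 fell by 1.38 (adjusted p = 0.0296), which its other probe set did not pass, and the receptor gene Prokr2 rose by 1.29 (adjusted p = 3.49e-05). In Leca2 mutants 0 of the 9 were called by limma and 2 had an unadjusted p under 0.05.

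Of 17 tested genes of striatal projection neurons, which use Isl1, 2 rose and 4 fell in Sey mutants, with a median of -0.13. Foxp2 rose by 0.83 (adjusted p = 0.000149) and Zfp503 by 0.73 (adjusted p = 0.000778), while Pou3f1 fell by 1.27 (adjusted p = 1.51e-06) and Ppp1r1b, the dopamine signalling protein DARPP-32, by 0.94 (adjusted p = 0.000249). The other probe set of Zfp503 was at 0.22 and not called in Sey mutants, and was called lower in Leca4 mutants (-0.38). The 4 that fell, Pou3f1, Ppp1r1b, Foxp1 and Bcl11b, averaged 8.39 to 12.83 in Sey control cortex, above the filter level. For Rarb, Tac1 and Oprm1 every Sey control was at or below that level, where a fall could hardly show. In which cells these genes changed was not tested. In Leca4 mutants 1 rose and 2 fell, with Foxp1 up by 0.70 (adjusted p = 0.000475) and Foxp2 down, at -0.60 (adjusted p = 0.00983). In Leca2 mutants 0 of the 17 were called by limma, with 1 at an unadjusted p under 0.05.

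Olig1 and Olig2 are also known for oligodendrocyte precursors. Of 8 tested genes of that lineage 3 rose and 0 fell in Sey mutants, with a median of 0.14. Myt1 rose by 0.66 ± 0.07 (adjusted p = 1.03e-06), Pdgfra, the growth factor receptor of these precursors, by 0.80 ± 0.20 (adjusted p = 0.0114), and Sox9, which radial glia also use, by 0.38 ± 0.10 (adjusted p = 0.0148). The other probe set of Sox9 was at 0.37 and not called. Sox10, the factor most specific to the lineage and named after its value was seen, was at -0.04 (adjusted p = 0.8). The Leca4 mutants had 1 call, Cnp at 0.36 (adjusted p = 0.00222), and the Leca2 mutants 0 by limma, also at an unadjusted p under 0.05.

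Markers of other tissues and neurons that express some of the members were counted as well. Of 6 tested genes of cholinergic and motor neurons, which use Isl1, 1 rose in Sey mutants, the Gbx2 given above, and 0 were called in the Leca4 and Leca2 mutants by limma, with 1 each at an unadjusted p under 0.05. Of 5 tested genes of sensory ganglia and retina 0 were called in any mutant by limma, with 1 at an unadjusted p under 0.05 in Sey mutants and 0 in the others. Of 8 tested genes of the diencephalon 4 rose and 1 fell in Sey mutants. Uncx was at least 3.47-fold higher (adjusted p = 1.8e-06), and Lhx9 rose by 1.73 ± 0.28 (adjusted p = 0.000259), Lhx5 by 1.15 ± 0.13 (adjusted p = 8.05e-06) and Lhx1 by 0.82 ± 0.14 (adjusted p = 0.000422). The mean level of the 8 was 6.96 to 7.06 over the Sey mutants and 6.13 to 6.38 over the Sey controls, and its part in the rise of the members was not tested. Uncx also rose in Leca4 mutants, by 1.54 ± 0.31 (adjusted p = 0.00687), and 0 of the 8 were called in Leca2 mutants by limma, with 1 at an unadjusted p under 0.05.

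Genes of the Sonic hedgehog pathway, the signal that patterns the ventral telencephalon and drives Olig2, showed 1 rise and 3 falls among 9 tested genes in Sey mutants. Smo, the signal transducer, rose by 0.40 (adjusted p = 0.00607), and the co-receptors Gas1, Cdon and Boc fell by 0.78, 0.42 and 0.41 (adjusted p = 1.59e-05, 0.00664 and 0.00294). The other probe sets of Smo (0.26) and Cdon (-0.22) were not called. Shh itself changed by -0.23 (adjusted p = 0.093) and its receptor and target Ptch1 by -0.08 (adjusted p = 0.83). Shh lay near the filter level, at a mean of 5.70 in Sey mutants and 5.93 in Sey controls. In the Leca4 and Leca2 mutants 0 of the 9 were called by limma, with 2 each at an unadjusted p under 0.05. Of 6 tested Sp factors other than Sp8, 2 rose in Sey mutants, Sp5 by 0.56 ± 0.18 (adjusted p = 0.0451) and Sp3 by 0.22 ± 0.06 (adjusted p = 0.0161), both far below the 2.88 of Sp8, and 0 were called in the other lines by limma, with 1 at an unadjusted p under 0.05 in Leca4 mutants.

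Among dorsal cortical genes those of the neurogenic cascade fell. Of 10 tested genes of dorsal identity and of the cortical neurogenic cascade 7 fell and 2 rose in Sey mutants, with a median of -0.69. The proneural factor Neurog1 fell by 2.67 (adjusted p = 1.33e-09; its other probe set changed by -0.25), Eomes, of intermediate progenitors, by 1.64 (adjusted p = 1.8e-09), Neurog2 by 1.61 (adjusted p = 3.57e-08) and Neurod2 by 0.77 (adjusted p = 3.61e-06). Of the regional identity genes of the list, Emx2 rose by 0.72 (adjusted p = 0.00665) and Lhx2 by 0.40 (adjusted p = 0.0185), and Emx1 was at -0.10 (adjusted p = 0.582). These 3 were named after their values were seen. The mean level of the 10 was 10.26 to 10.57 over the Sey mutants and 11.13 to 11.23 over the Sey controls, above the filter level on every array. Neurog1 was the 1 call in each of the other lines, rising by 1.34 in Leca4 mutants (adjusted p = 3.11e-05) and falling by 1.43 in Leca2 mutants (adjusted p = 7.69e-05). Its other probe set was not called in either, at 0.07 in Leca4 mutants and -0.14 in Leca2 mutants. Of 13 tested genes of meninges, vessels, blood and microglia 0 were called in Sey or Leca2 mutants by limma, with 1 each at an unadjusted p under 0.05, and 1, Csf1r at 0.42 (adjusted p = 0.0294), in Leca4 mutants. The other 2 probe sets of Csf1r were at 0.14 to 0.26 there and not called.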

How the data were processed

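Per the labels' protocols, RNA was isolated with RNeasy Micro columns, amplified by MessageAmp Premier and biotin-labelled. The authors deposited log2 expression values per probe set, made with RMA per the submitters' processing notes. Neither the settings of RMA nor a genome build is given in the sources used here. Columns of a line share nearly the same distribution and those of different lines do not, so the lines appear to have been normalized separately. RMA values hold no counts, so that the number of arrays limits the precision. Replicates are named biological by the labels, with no word on litters.

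Genes were named through the platform's annotation, in which 34945 of 45037 probe sets that are no controls name 1 gene. Kept probe sets had at least 3 arrays above the 40th percentile of the array, and a gene was read from the brightest of its kept probe sets. Tests used R 4.3.3 and limma 3.58.1 (lmFit, eBayes, two-sided) in 1 model of 6 groups over 21 arrays (degrees of freedom 15 residual, 3.21 prior) with Benjamini-Hochberg adjustment over 29474 probe sets per contrast. The fit was tested on simulated data. Where a whole group was at or below the filter level, "at least" folds are the mean of the other group over that level. All probe sets of the members were named, together with the 3 genes nearest to each member and up to 4 genes per list and line with the smallest p. The members and the lists were chosen with earlier results of these data known. Alternatives were other filters, 1 probe set per gene, only the groups compared, a replicate block, other variance models and scalings, a term for sex, other thresholds and leaving out each array.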

Additional observations from a re-analysis of the deposited data

Results flagged for a closer look

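The second probe set of Isl1, removed by the filter on low values, had 1 array far from its group. Leca2 mutant 2 read 6.59 against 4.58 to 4.88 in the other Leca2 mutants, a gap of 0.851 of the group's range, and 18 groups were looked at in this way, of which chance sets apart about 1 in 20. The changes of 3 genes differed between lines by the test of the difference. Sey minus Leca4 was 3.974 for Gsx2, 2.252 for Olig2 and 2.566 for Sp8, and Sey minus Leca2 was 2.468 for Gsx2, 2.068 for Olig2 and 3.273 for Sp8.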

How the results depend on the processing

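The calls of Gsx2, Sp8 and Olig2 in Sey mutants, and of their differences between Sey and each other line, held under every alternative run. Isl1 was dropped by the stricter filter. In Sey mutants Olig1 was not called with the replicate block (adjusted p = 0.0823) or without a filter (0.0551), and Isl1 was called with only the groups compared (adjusted p = 0.0198), the replicate block (1.57, adjusted p = 0.0453), a term for sex (0.0204) and an adjusted p under 0.10; leaving out each Sey array gave Isl1 1.11 to 1.62 and no call. The count of members that differed between Leca4 and Leca2 was 0, and 1 (Gsx2) with the replicate block, array weights and an adjusted p under 0.10; over single arrays left out it was 0 to 1. Without Leca4 mutant 2 Olig1 differed between Sey and Leca4 (0.90, adjusted p = 0.0239). Changes that turned sign were small or uneven ones: Olig1 in Leca4 mutants was 0.0522 without mutant 1 and 0.01 without control 4 (range over arrays left out -0.34 to 0.0522), Isl1 in Leca4 mutants 0.07 without mutant 3, 0.03 without control 3 and 0.05 without control 4 (-0.27 to 0.07), Isl1 for Sey minus Leca2 -0.33 with array weights, -0.23 without Sey mutant 2, -0.19 without Leca2 mutant 1 and -0.30 without Leca2 mutant 4 (-0.30 to 0.79), and Olig2 for Leca4 minus Leca2 0.0546 without Leca4 mutant 3 (-0.41 to 0.0546). The cause was not tested. List counts were added after the data were seen. The genes of all lists called in Leca2 mutants were 1, against 0 with only the groups compared, 2 with array weights and 1 to 2 with arrays left out, and the other ventral regulators that rose in Leca4 mutants were 0, against 1 with only the groups compared and 2 at an adjusted p under 0.10. Probe sets called in Sey mutants were 4311, against 1855 with at least 1.4-fold, 2791 with 1 probe set per gene, which tests fewer, and 2815 with a term for sex. In Leca4 mutants they were 1110, against 403 with only the groups compared, 581 with at least 1.4-fold and 1767 at an adjusted p under 0.10. In Leca2 mutants they were 110, against 29 with only the groups compared, 243 with array weights, 66 with 1 probe set per gene, and 50, 60, 70 and 73 without control 1, 2 or 3 or mutant 2. Deviations of mutants and controls with the same replicate number correlated at -0.338 to 0.447, and 4 of 9 mutants correlated best with their own number, so that the numbers do not show a pairing. Levels near the filter level limit Isl1 and the controls of Gsx2 and Olig2. Among the listed genes they limit Nkx2-1, Gsx1, Shh and several striatal, cholinergic, motor neuron, sensory and retina genes. Others at or below the filter level include Dlx6, Prox1 and Uncx in Sey controls and Sp5 in the Leca4 and Leca2 lines.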

Other observations

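Other genes that stood out on Leca2 mutant 2, chosen after their values were seen, were few. Fgf15, a growth factor gene of the septum and diencephalon, read 8.89 on that array, against 6.02 to 7.0 in the other Leca2 mutants and 5.53 to 6.24 in Leca2 controls. Pnoc, which encodes the precursor of the neuropeptide nociceptin, read 6.88, against 5.22 to 5.51 in the other Leca2 mutants and 5.21 to 5.53 in Leca2 controls. Ecel1, a peptidase gene of neurons, read 6.87, against 5.41 to 5.66 in the other Leca2 mutants and 5.61 to 5.94 in Leca2 controls. In all, 6 kept probe sets of that array lay more than 1 log2 unit above every other Leca2 mutant, against 0, 7 and 9 on the arrays of mutants 1, 3 and 4.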
